A study of Mus musculus with 6 samples.

Results

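Aminoacyl-tRNA synthetases are the enzymes that join each amino acid to its tRNA, and their mRNAs were followed here in mouse bone marrow–derived macrophages (BMDMs). Members were the array probes, controls left out, whose gene name equals 1 of 36 synthetase symbols. All 36 were found among 34844 gene names, 20 for cytosolic enzymes and 16 for mitochondrial enzymes with a symbol ending in 2. The study asked how a small-molecule inhibitor of the deubiquitinase USP7 alters the transcriptional response of macrophages to lipopolysaccharide (LPS).

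The cells came from wild type C57/B6 females, 6 to 8 weeks old per the labels, and grew for 7 days in medium conditioned by L929 cells. The paper gives an older age range for the mice. Untreated BMDMs were compared with BMDMs given LPS, a TLR4 ligand, for 4 h, and with BMDMs given the USP7 inhibitor at 10 µM for 30 min and then LPS (LPS+USP7i). The LPS dose was 100 ng/ml in the series text and 100 ng/µl in the treatment protocol of the labels. Each group had 2 arrays from independent experiments, a number that limits precision. No source states whether cells without inhibitor received its solvent, so a difference of LPS+USP7i from LPS includes any effect of the solvent. No group received the inhibitor alone. The 6 arrays lay on 1 slide, the groups at different positions, so slide position and treatment cannot be told apart, and replicate number followed slide position as well.

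The labelled cell type was checked against marker genes. All 8 macrophage markers found on the array were well above background on every array, with *Csf1r* the most abundant, and their summed signal was 729300 and 721300 on untreated, 723700 and 748600 on LPS, and 628300 and 587300 on LPS+USP7i arrays. The 4 neutrophil markers were also above background on every array, led by *Elane*, and summed to 4987 and 5102, then 5002 and 5772, then 5831 and 6378. From LPS to LPS+USP7i the macrophage markers *Fcgr1* and *Cd14* fell by 1.60 and 1.31 (adjusted p = 0.0317 and 0.0184), and no other marker of these lists was called. With LPS *Cd14* rose by 1.69 and *Itgam* fell by 0.66 (adjusted p = 0.00518 and 0.0233). Markers well above background on every array numbered 1 of 2 for T cells, 1 of 3 for B cells, and 0 for NK cells, dendritic cells, erythroid cells, mast cells, and fibroblasts. The dendritic cell marker *Zbtb46* was at background in untreated cells and above it on all 4 treated arrays, and was called higher with LPS and with LPS+USP7i (adjusted p = 0.00435 and 0.00806). The 3 fibroblast markers were not above background on any array. What these cells contributed to the synthetase signals was not tested.

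Each synthetase activates its amino acid with ATP and transfers it to the matching tRNA, so the family sets the supply of charged tRNA for translation. Cytosolic and mitochondrial protein synthesis mostly use enzymes from separate nuclear genes, although *Gars* and *Kars* each encode both forms. When charged tRNA runs short, the kinase GCN2, encoded by *Eif2ak4*, phosphorylates eIF2α, which favours translation of the transcription factor ATF4, and ATF4 in turn is known to raise many cytosolic synthetase genes. Signals below are quantile-normalized log2 values of the brightest probe of a gene, given as replicate 1 and then replicate 2. Differences are on the log2 scale with a standard error (SE), and a gene was called changed when its Benjamini-Hochberg adjusted p value from limma, taken over all probes, was under 0.05. Of the 36 members, 32 were well above background on all 6 arrays, a flag the scanner software sets for each spot. The exceptions were *Yars*, above background on 1 array of each group, *Wars2*, on 5 arrays, *Mars2*, on 4, and *Nars2*, on 0. A second probe for *Wars2* was well above background on all 6 arrays.

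Promoter sequence was examined because some cytosolic members were called higher with the inhibitor, while others were called lower. ATF4 binds a known element, whose core TGATGNAA was searched on both strands. RefSeq promoter windows of 300 bases, 250 before and 50 after the annotated start on build GRCm38.p6, were at hand for 26 of the 36 members, 12 cytosolic and 14 mitochondrial. Not in that table were *Cars*, *Hars*, *Lars*, *Mars*, *Nars*, *Rars*, *Vars*, *Wars*, *Hars2*, and *Pars2*. The core occurred in 5 of the 12 cytosolic windows and in 0 of 15 mitochondrial windows (1 gene has 2), against 3.97% of all 32851 windows. The genes with a match were *Aars*, *Gars*, *Tars*, *Iars*, and *Yars*, and the printed stretches hold the match in capitals, each ending 20 bases after the start. They lie at chr8:111033712-111033861 on the plus strand (*Aars*), chr6:55037941-55038020 on the plus strand (*Gars*), chr15:11399639-11399718 on the minus strand (*Tars*), chr13:49682070-49682149 on the plus strand (*Iars*), and chr4:129189843-129189922 on the plus strand (*Yars*).
Aars: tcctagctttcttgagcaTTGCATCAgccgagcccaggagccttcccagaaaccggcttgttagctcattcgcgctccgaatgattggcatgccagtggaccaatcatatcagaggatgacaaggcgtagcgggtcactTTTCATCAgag
Gars: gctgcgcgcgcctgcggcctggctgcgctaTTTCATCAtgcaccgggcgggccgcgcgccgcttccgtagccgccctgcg
Tars: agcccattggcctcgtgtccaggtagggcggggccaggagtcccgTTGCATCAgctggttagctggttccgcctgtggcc
Iars: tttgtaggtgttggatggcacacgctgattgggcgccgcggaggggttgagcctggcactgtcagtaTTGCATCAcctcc
Yars: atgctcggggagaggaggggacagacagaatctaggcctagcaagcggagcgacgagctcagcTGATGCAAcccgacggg

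*Aars*, for alanyl-tRNA synthetase, held the core at 2 places, from −112 and from 10 relative to the start, and *Gars*, *Tars*, *Iars*, and *Yars* held it from −30, −15, 8, and 4. The cyclic AMP response element TGACGTCA was found in 0 member windows (1.79% of all windows). The core of the interferon-stimulated response element (ISRE) was found in *Qars* (3.44% of all windows). TTCNNNGAA, the gamma-activated sequence, was found in *Aars*, *Kars*, and *Nars2* (8.3% of all windows). None of the matches in members overlapped another. A match describes letters in these windows, and binding was not measured.

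LPS alone moved the cytosolic synthetases in both directions. *Rars*, *Wars*, *Farsa*, and *Kars* rose and *Sars*, *Qars*, and *Nars* fell, which makes 4 of 20 higher and 3 of 20 lower. Of all gene names, 7.97% were called higher and 12.8% lower with LPS, and among the 15617 names well above background on every array 14.1% were higher and 23.9% lower, so the cytosolic counts lay near the background. The median difference of the 20 members was −0.21, against 0.0016 over all gene names and −0.18 over those well above background. With each array scaled to its 75th percentile in place of quantile normalization, the median over all probes shifted to 0.51 and the cytosolic median was −0.53 relative to that shift. There the same 4 members were called higher and 0 were called lower by limma, although 2 were lower at an unadjusted p under 0.05. Without untreated replicate 1 or 2 the counts from limma were 0 and 0, with 4 higher and 5 lower, then 5 and 3, at an unadjusted p under 0.05. Without LPS replicate 1 only *Rars* was called (3 lower at an unadjusted p under 0.05), and without LPS replicate 2 *Kars* and *Rars* were higher and *Qars* and *Sars* lower. Without either LPS+USP7i array, which enters only the spread, 4 were higher and *Nars* and *Qars* lower. In RNA from a whole culture, fewer expressing cells and less RNA per cell cannot be told apart.

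*Rars*, for arginyl-tRNA synthetase, had log2 signals of 8.28 and 8.38 on untreated, 9.54 and 9.35 on LPS, and 9.51 and 9.36 on LPS+USP7i arrays. Both LPS arrays and both LPS+USP7i arrays were above the untreated arrays, and those of the treated groups overlapped. The rise with LPS was 1.11 (SE 0.11, adjusted p = 0.0084), a 2.16-fold increase.

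*Wars* encodes tryptophanyl-tRNA synthetase, known as an interferon-inducible enzyme. It had log2 signals of 12.80 and 12.69 on untreated, 13.57 and 13.63 on LPS, and 12.33 and 12.70 on LPS+USP7i arrays. Both LPS arrays were above all other arrays, while the untreated and LPS+USP7i arrays overlapped. *Wars* rose by 0.85 with LPS (SE 0.15, adjusted p = 0.0298) and fell by 1.08 from LPS to LPS+USP7i (SE 0.15, adjusted p = 0.0317). A second probe for *Wars*, annotated to another transcript, rose by 1.55 (adjusted p = 0.00794) and fell by 1.18 (adjusted p = 0.0273).

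*Kars*, for the lysyl-tRNA synthetase of both compartments, had log2 signals of 12.86 and 12.87 on untreated, 13.44 and 13.43 on LPS, and 12.78 and 12.69 on LPS+USP7i arrays. The groups did not overlap, and the LPS arrays were the highest. *Kars* rose by 0.57 with LPS (SE 0.061, adjusted p = 0.0104) and fell by 0.70 with the inhibitor (SE 0.061, adjusted p = 0.0168). *Farsa*, for the alpha subunit of phenylalanyl-tRNA synthetase, moved in the same order, with a rise of 0.63 (adjusted p = 0.0132) and then a difference of −0.55 (adjusted p = 0.0327). The partner subunit *Farsb* had differences of −0.45 and −0.18, neither past the threshold (adjusted p = 0.152 and 0.603). A difference between both subunits was not tested.

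*Sars*, for seryl-tRNA synthetase, had log2 signals of 13.17 and 13.37 on untreated, 12.21 and 12.50 on LPS, and 13.17 and 13.13 on LPS+USP7i arrays. The LPS arrays were below all others, and the other 2 groups overlapped. It fell by 0.91 with LPS (SE 0.13, adjusted p = 0.0209) and rose by 0.79 from LPS to LPS+USP7i (SE 0.13, adjusted p = 0.0479). *Qars*, for glutaminyl-tRNA synthetase, fell by 0.81 with LPS (adjusted p = 0.0195). *Nars*, for asparaginyl-tRNA synthetase, fell by 0.39 (adjusted p = 0.0472). The other 13 cytosolic members did not pass the threshold, with differences from −0.58 for *Mars* to 0.34 for *Hars*.

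*Pars2*, *Vars2*, *Tars2*, *Cars2*, *Aars2*, *Lars2*, *Fars2*, and *Hars2* fell with LPS, 8 of the 16 mitochondrial members, and 0 were called higher by limma, with 0 higher and 10 lower at an unadjusted p under 0.05. For 13 of the 16 members both LPS arrays were below both untreated arrays, as for 10420 of the 34844 gene names and 7729 of the 15617 well above background on every array. Of all gene names 12.8% were called lower, and 23.9% of those well above background. The median difference was −0.68, against 0.0016 and −0.18 over the same gene names, with −0.64 over replicate 1 and −0.63 over replicate 2. With 75th percentile scaling it was −1.09 relative to the shift of all probes and 8 members were called lower, *Mars2* among them and *Fars2* not, while *Nars2*, at background everywhere, was called higher. Without untreated replicate 1 only *Cars2* and *Pars2* were called lower, without untreated replicate 2 only *Cars2*, and without LPS replicate 1 *Cars2* and *Vars2*. Without LPS replicate 2, or either LPS+USP7i array, 6 were lower. *Cars2* passed in all 15 refits with other processing or fewer arrays, with differences from −0.92 to −0.72 and adjusted p values from 0.000894 to 0.0403.

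*Pars2*, for mitochondrial prolyl-tRNA synthetase, had log2 signals of 9.45 and 9.65 on untreated, 8.02 and 8.17 on LPS, and 8.15 and 8.49 on LPS+USP7i arrays. Both untreated arrays were above the other 4. It fell by 1.45 with LPS (SE 0.16, adjusted p = 0.0105), a 2.74-fold decrease, and differed by 0.22 between LPS+USP7i and LPS (SE 0.16, adjusted p = 0.548). *Vars2*, the valyl enzyme, fell by 1.20 (adjusted p = 0.0106), *Tars2*, the threonyl enzyme, fell by 0.93 (adjusted p = 0.0241), and *Cars2*, the cysteinyl enzyme, fell by 0.88 (adjusted p = 0.00494). Over all refits *Vars2* ranged from −1.31 to −0.68 with LPS, and from −1.44 to −0.78 for LPS+USP7i against untreated cells. *Aars2* fell by 0.77, *Lars2* fell by 0.76, *Fars2* fell by 0.60, and *Hars2* fell by 0.59, with adjusted p values from 0.01 to 0.0446.

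*Wars2*, for mitochondrial tryptophanyl-tRNA synthetase, had log2 signals of 5.97 and 8.02 on untreated, 5.28 and 5.09 on LPS, and 3.92 and 5.33 on LPS+USP7i arrays, of which 1 was well above background. The untreated arrays were further apart from each other than any LPS array was from any LPS+USP7i array. Its difference with LPS was −1.81 (SE 0.88, adjusted p = 0.3), and a second probe gave −0.12 (adjusted p = 0.861). *Yars2* was 0.064 with LPS (adjusted p = 0.643), and of the members not called and above background on all arrays the lowest was *Rars2* at −0.46 (adjusted p = 0.12).

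**Figure D1:**
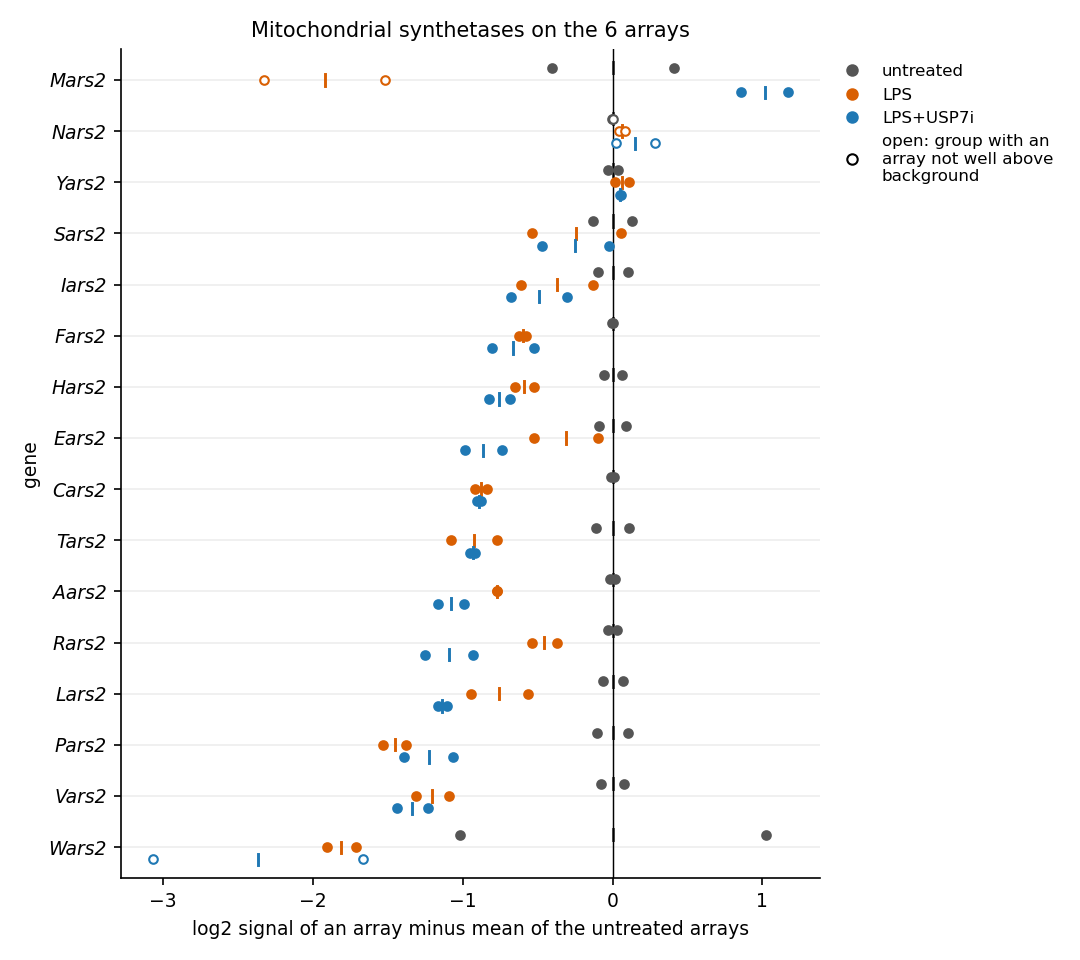
Log2 signal of the 16 mitochondrial synthetases on each array, minus the mean of the untreated arrays of the same gene (points, 2 per group; short bars, group means; open points, a group with an array not well above background). For 13 genes both LPS arrays lie left of both untreated arrays, and *Mars2* lies right of its untreated arrays with LPS+USP7i.

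With the USP7 inhibitor, cytosolic synthetases were called changed in both directions. In LPS+USP7i compared with LPS, *Aars*, *Nars*, *Cars*, and *Sars* rose and *Wars*, *Vars*, *Kars*, and *Farsa* fell, 4 of 20 in each direction. The comparison shares the LPS arrays with that of LPS and untreated cells. Over all gene names 5.51% were higher and 4.28% lower, and among those well above background on every array 9.74% were higher and 7.44% lower. The median difference was 0.12, against 0.0007 over all gene names and 0.055 over those well above background, and it stayed above 0 under every scaling but ranged from 0.054 with 75th percentile scaling to 0.22 without LPS replicate 2. With 75th percentile scaling, *Sars* was not called and the other 7 were. With replicate number as a block in the fit, *Aars*, *Cars*, and *Nars* were called higher and *Kars* lower. *Sars*, *Wars*, *Vars*, and *Farsa* were not called there. In fits without either untreated array, 0 members passed by limma, and the smallest adjusted p of any probe was 0.0561, while 5 cytosolic members were higher and 4 lower at an unadjusted p under 0.05. Without LPS replicate 1 only *Aars* was called and without LPS replicate 2 none was, with the same 2 unadjusted counts. Without LPS+USP7i replicate 1, *Aars*, *Cars*, and *Nars* were higher and *Farsa*, *Kars*, and *Wars* lower, and without LPS+USP7i replicate 2 those 3 were higher and *Kars* and *Wars* lower. All 8 kept their sign in every refit.

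*Aars* had log2 signals of 12.06 and 12.05 on untreated, 11.94 and 11.77 on LPS, and 13.09 and 12.91 on LPS+USP7i arrays. Both LPS+USP7i arrays were above all others, by more than the gap between any replicates. The rise over LPS was 1.14 (SE 0.10, adjusted p = 0.017), a 2.20-fold increase, with 1.15 in replicate 1 and 1.13 in replicate 2. Its probe lies on build mm9 at chr8:113579376-113579434.

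*Nars* had log2 signals of 11.56 and 11.57 on untreated, 11.21 and 11.13 on LPS, and 12.10 and 11.94 on LPS+USP7i arrays. The groups did not overlap, and LPS+USP7i was the highest. The rise over LPS was 0.85 (SE 0.081, adjusted p = 0.0192). *Cars*, for cysteinyl-tRNA synthetase, had log2 signals of 11.79 and 11.90, then 11.65 and 11.63, then 12.40 and 12.52, again with LPS+USP7i above all others. It rose by 0.82 (SE 0.077, adjusted p = 0.0186).

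*Gars*, for the glycyl-tRNA synthetase of both compartments, had log2 signals of 14.17 and 14.26 on untreated, 13.59 and 13.77 on LPS, and 13.95 and 14.22 on LPS+USP7i arrays. The LPS arrays were below all others. The differences, −0.54 with LPS (adjusted p = 0.0692) and 0.41 with the inhibitor (SE 0.13, adjusted p = 0.173), did not pass the threshold. With normexp *Gars* was called lower with LPS and higher with the inhibitor, and with dim probes left out it was called lower with LPS, while 75th percentile scaling turned its difference with LPS to 0.027. *Tars*, for threonyl-tRNA synthetase, also had its lowest signals on the LPS arrays, with a difference of 0.37 with the inhibitor (adjusted p = 0.0626) that passed with normexp and with a trended prior. *Eprs*, which joins glutamyl and prolyl activities in a single protein, had a difference of 0.49 (adjusted p = 0.334).

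Among the members that fell, *Vars*, for valyl-tRNA synthetase, was the exception that LPS had left near its untreated level, with 0.11 (adjusted p = 0.498). It fell by 0.74 with the inhibitor (SE 0.082, adjusted p = 0.0234) and both LPS+USP7i arrays were below the other 4. The fall of *Wars* was a 2.12-fold decrease and that of *Kars* a 1.62-fold decrease.

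The members nearest to 0 were *Rars*, *Iars*, and *Mars*. *Rars*, whose arrays are given above, differed by −0.011 (SE 0.11, adjusted p = 0.994). *Iars*, for isoleucyl-tRNA synthetase, had log2 signals of 11.02 and 11.20 on untreated, 10.59 and 11.03 on LPS, and 10.75 and 10.94 on LPS+USP7i arrays, a difference of 0.034 (SE 0.19, adjusted p = 0.98). *Mars*, for methionyl-tRNA synthetase, had 9.49 and 9.64, then 8.83 and 9.14, then 8.80 and 9.07, a difference of −0.053 (SE 0.16, adjusted p = 0.935). For all 3 the LPS and LPS+USP7i arrays overlapped.

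**Figure D2:**
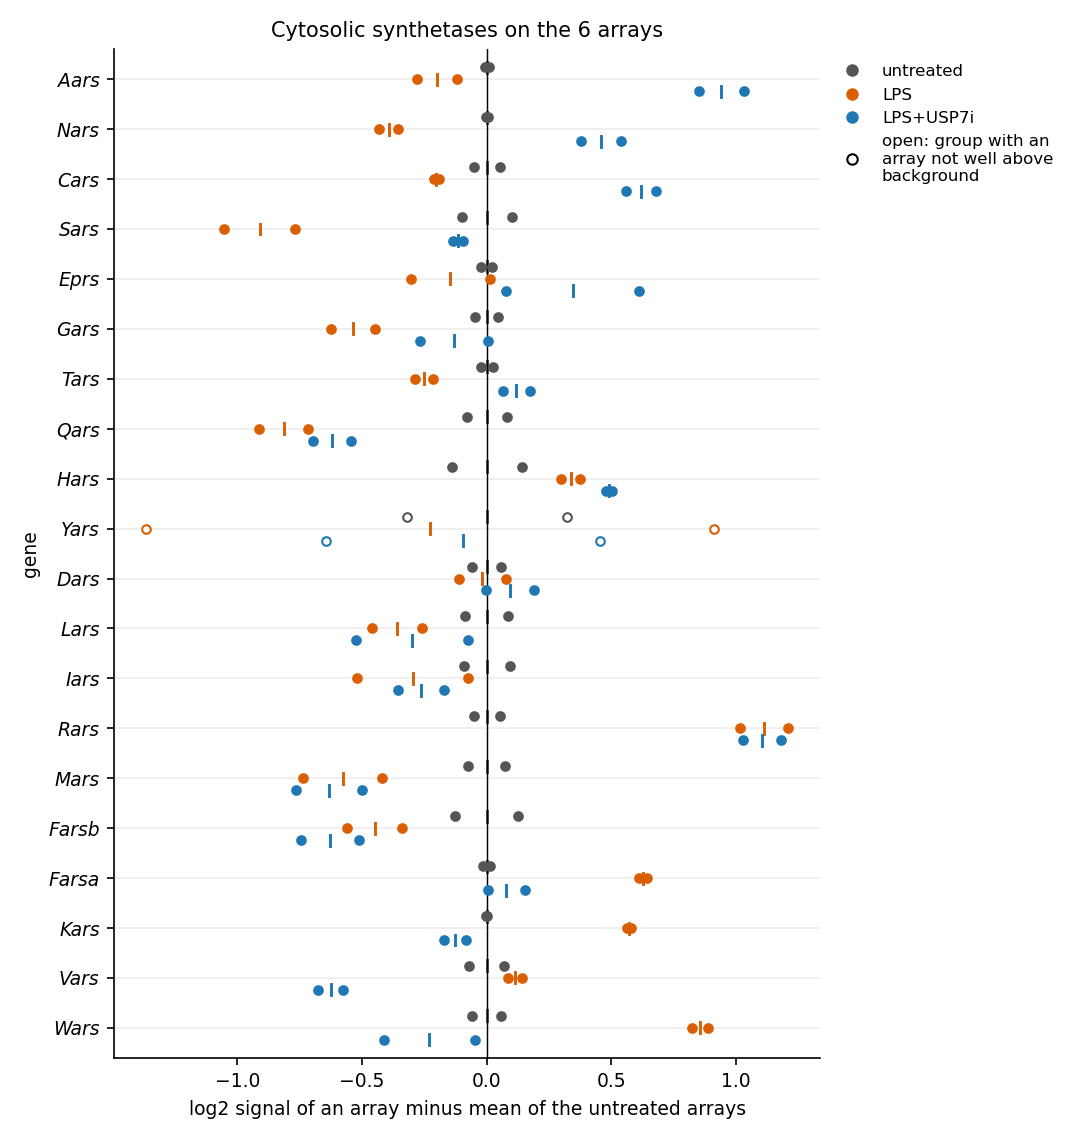
Log2 signal of the 20 cytosolic synthetases on each array, minus the mean of the untreated arrays of the same gene, ordered by the difference of LPS+USP7i from LPS (points, 2 per group; short bars, group means; open points, a group with an array not well above background). *Aars*, *Nars*, and *Cars* lie right of their untreated arrays with LPS+USP7i, and *Wars*, *Kars*, and *Farsa* lie right of them with LPS.

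The 12 cytosolic members known as ATF4-responsive and the other 8 were counted apart. Of the 12, 4 were higher (*Aars*, *Cars*, *Nars*, *Sars*) and 1 was lower (*Wars*), 10 had a positive difference, and the median was 0.39. Of the other 8, 0 were higher by limma, also at an unadjusted p under 0.05, 3 were lower (*Vars*, *Kars*, *Farsa*), and the median was −0.094. Over all gene names 5.51% were higher and 4.28% lower, and among those well above background 9.74% and 7.44%. The promoter core above was found in members with a difference of 1.14 (*Aars*), 0.41 (*Gars*), 0.37 (*Tars*), 0.034 (*Iars*), and 0.13 (*Yars*, adjusted p = 0.987, above background on 1 array of each group), and it was not found in the window of *Sars*, which rose. A difference between these lists was not tested, and the lists were chosen with earlier results of these data known.

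Structural class and complex membership gave small counts, against 9.74% higher and 7.44% lower over all gene names well above background, and a difference from these shares was not tested. Of 9 members with a class I catalytic fold, 1 was higher (*Cars*) and 2 were lower (*Vars*, *Wars*) with the inhibitor, with a median of 0.034. Of 10 with a class II fold, 3 were higher (*Aars*, *Nars*, *Sars*) and 2 were lower (*Farsa*, *Kars*), with a median of 0.26. The 8 enzymes of the multi-synthetase complex, in which several cytosolic synthetases are bound to scaffold proteins, had 0 higher by limma, also at an unadjusted p under 0.05, and 1 lower (*Kars*), with a median of 0.047. Its scaffolds *Aimp1*, *Aimp2*, and *Eef1e1* differed by −0.10, 0.078, and −0.079 between LPS+USP7i and LPS (adjusted p = 0.708, 0.704, and 0.92). With LPS alone *Aimp2* fell by 0.77 (adjusted p = 0.012), and *Aimp1* and *Eef1e1* differed by −0.39 and 0.85 (adjusted p = 0.115 and 0.0776).

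Of the mitochondrial members, *Mars2* rose with the inhibitor, and 0 were lower by limma, although 3 were lower at an unadjusted p under 0.05. Over all gene names 5.51% were higher and 4.28% lower, and among those well above background 9.74% and 7.44%, so this count lay near the background. *Mars2*, for mitochondrial methionyl-tRNA synthetase, had log2 signals of 5.27 and 6.08 on untreated, 3.35 and 4.15 on LPS, and 6.53 and 6.85 on LPS+USP7i arrays. The groups did not overlap, and it was not well above background on either LPS array, so only a bound can be given there, taken from the dimmest spot above background of each array. On quantile-normalized values it was at least 4.60-fold higher in LPS+USP7i than in LPS (adjusted p = 0.0352), but the log2 difference was 0.89 with normexp and 1.37 in the deposited table, both under that bound. Its difference of LPS from untreated did not pass (adjusted p = 0.0541). When any of the 6 arrays was left out, *Mars2* was not called, over a range of adjusted p from 0.0065 to 0.113 in all refits.

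*Rars2*, the mitochondrial arginyl enzyme, had log2 signals of 10.82 and 10.88 on untreated, 10.31 and 10.48 on LPS, and 9.59 and 9.92 on LPS+USP7i arrays. The groups did not overlap and lay in that order, from high to low. The difference of LPS+USP7i from LPS was −0.64 (SE 0.14, adjusted p = 0.0811), which passed with normexp background correction and with dim probes left out, over a range of adjusted p from 0.0312 to 0.234. The median of the 16 mitochondrial members was −0.093, against 0.0007 over all gene names, and it stayed below 0 under every scaling but was −0.025 without LPS+USP7i replicate 1 and −0.055 without LPS replicate 2. With *Mars2* set to its bound, still above all other members, the median is the same.

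**Figure D3:**
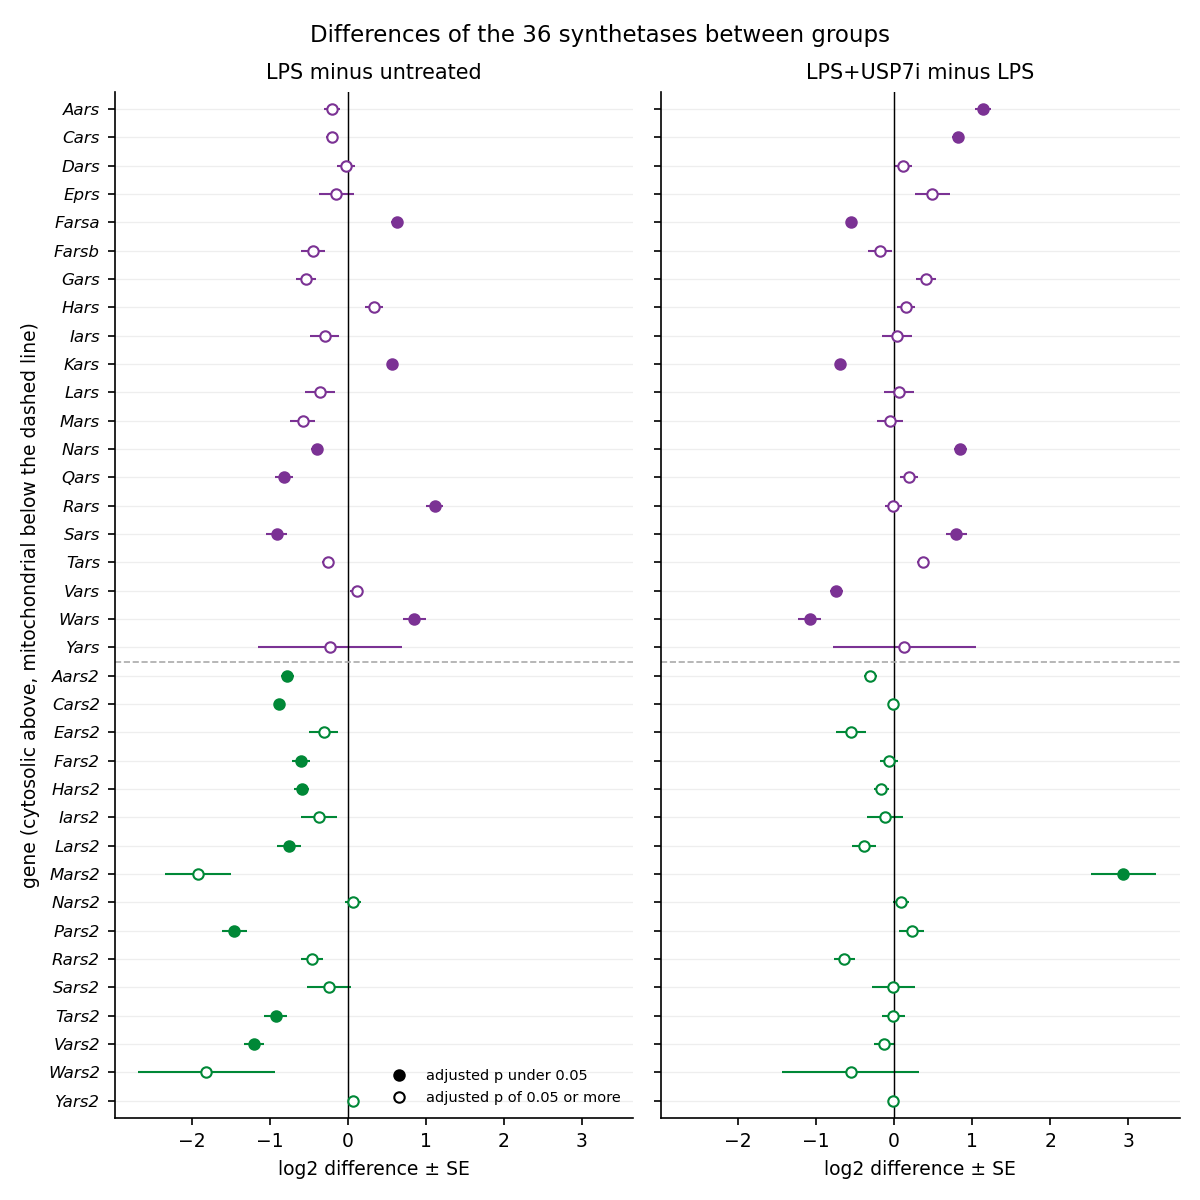
Log2 difference of each of the 36 synthetases for LPS minus untreated (left) and LPS+USP7i minus LPS (right), with its standard error, filled where the adjusted p was under 0.05, with 20 cytosolic members above and 16 mitochondrial members under the dashed line. Both panels use the LPS arrays, where *Mars2* was not well above background, and 4 filled cytosolic points lie on each side of 0 with the inhibitor.

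LPS+USP7i cells were also set against untreated cells. Here 4 of 20 cytosolic members were higher, *Rars* by 1.10, *Aars* by 0.94, *Cars* by 0.62, and *Nars* by 0.46 (adjusted p = 0.0121, 0.0142, 0.0189, and 0.0404), and 2 were lower, *Vars* at −0.63 and *Qars* at −0.62 (adjusted p = 0.0211 and 0.0459). Over all gene names 6.15% were higher and 8.73% lower, and among those well above background on every array 10.8% were higher and 16.3% lower. The cytosolic median was −0.11, and −0.37 relative to a shift of all probes of 0.55 with 75th percentile scaling, where its own sign turned (0.18). It turned as well without LPS+USP7i replicate 1 (0.0014). *Kars*, *Farsa*, *Sars*, and *Wars* had differences of −0.13, 0.079, −0.12, and −0.23, none past the threshold (adjusted p = 0.327, 0.635, 0.713, and 0.494). The second probe of *Wars* had the other sign, at 0.37, and did not pass either (adjusted p = 0.228).

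Of the mitochondrial members, 9 of 16 were lower than in untreated cells and 0 were higher by limma, also at an unadjusted p under 0.05, against 8.73% lower over all gene names and 16.3% over those well above background. They were *Vars2* (−1.34), *Pars2* (−1.23), *Lars2* (−1.14), *Rars2* (−1.09), *Aars2* (−1.08), *Tars2* (−0.93), *Cars2* (−0.89), *Hars2* (−0.76), and *Fars2* (−0.67), with adjusted p values from 0.00725 to 0.0357. The median was −0.88 and was below 0 under every scaling. Without untreated replicate 1 limma called *Cars2* and 0 cytosolic members (5 higher and 4 lower at an unadjusted p under 0.05), and without untreated replicate 2 it called 0 members (5 and 2 cytosolic, 1 and 9 mitochondrial). Without LPS replicate 1 or 2, *Aars* and *Rars* were higher, 0 cytosolic members (4 unadjusted) and 6 mitochondrial members lower. Without LPS+USP7i replicate 1 or 2, 3 cytosolic members were higher, 0 were lower (2 and 6 unadjusted), and 5 and 7 mitochondrial members were lower. Both comparisons with untreated cells share the untreated arrays.

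Genes of the integrated stress response, through which GCN2 and its sister kinases act on ATF4, were read beside the synthetases. Of 33 such genes, 12 were higher and 2 were lower in LPS+USP7i compared with LPS, with a median of 0.78, against 5.51% and 4.28% of all gene names and 9.74% and 7.44% of those well above background. *Atf4* had log2 signals of 14.94 and 14.95 on untreated, 14.30 and 14.09 on LPS, and 15.63 and 15.28 on LPS+USP7i arrays, and rose by 1.26 over LPS (SE 0.15, adjusted p = 0.0269). *Eif2ak4*, for GCN2, fell by 1.21 with LPS (adjusted p = 0.00877) and rose by 1.11 with the inhibitor (adjusted p = 0.0223). Asparagine synthetase, *Asns*, rose by 1.70 (adjusted p = 0.0149), the pseudokinase gene *Trib3* by 2.73 (adjusted p = 0.0151), and *Gdf15*, a stress-induced cytokine, by 4.20 (adjusted p = 0.0166). *Chac1*, for a glutathione-degrading enzyme, had log2 signals of 5.24 and 4.71 on LPS and 8.13 and 7.61 on LPS+USP7i arrays (adjusted p = 0.0187), and as 1 LPS array was not above background no size is given. Without untreated replicate 1 or 2 no probe passed, *Atf4* at an adjusted p of 0.0873 and *Asns* at 0.0619, and without LPS replicate 1 or 2 *Atf4* was at 0.083 and 0.0945 and *Asns* at 0.0559 and 0.0511. Over all refits these ranged from 0.00522 to 0.0945 and from 0.000543 to 0.0619.

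*Ddit3*, for the transcription factor CHOP, and *Sesn2* differed by 1.20 and 0.72 without passing (adjusted p = 0.0789 and 0.302), and their LPS+USP7i replicates were apart by more than those of *Aars*. The 2 genes called lower were *Nupr1*, which fell by 2.14 (adjusted p = 0.0355), and *Eif2ak2*, for the interferon-induced kinase PKR, which fell by 1.73 (adjusted p = 0.0219). With LPS alone 6 of the 33 were higher and 8 were lower, with a median of −0.23, against 7.97% and 12.8% of all gene names and 14.1% and 23.9% of those well above background. The largest rises were those of *Nupr1* at 4.26 and the cystine transporter *Slc7a11* at 3.68 (adjusted p = 0.00518 and 0.00774), the latter 2.21 with normexp. *Eif2ak3*, for the sister kinase PERK, fell by 2.90, *Trib3* fell by 2.07, and *Atf4* fell by 0.75 with LPS (adjusted p = 0.0085, 0.00979, and 0.0465). With the inhibitor *Eif2ak3* rose by 1.70 over LPS (adjusted p = 0.0461). For *Atf4* the difference with LPS was −0.14 with 75th percentile scaling and −0.31 as the mean of its probes (adjusted p = 0.398 and 0.407). *Cth*, for cystathionine gamma-lyase, stayed at background in untreated cells and on quantile-normalized values was at least 10.6-fold higher with LPS (adjusted p = 0.00737), although its log2 difference was 1.38 with normexp and 2.28 in the deposited table. Against untreated cells 11 were higher and 0 were lower by limma with LPS+USP7i, with 2 lower at an unadjusted p under 0.05, against 6.15% and 8.73% of all gene names and 10.8% and 16.3% of those well above background. *Atf4* (0.51), *Trib3* (0.66), and *Chac1* (1.18) did not pass there (adjusted p = 0.135, 0.161, and 0.0738). The largest rises there were those of *Slc7a11* (5.87) and *Gdf15* (2.88), and *Cth* was at least 6.06-fold higher, with adjusted p values of 0.00626, 0.0191, and 0.0169, although the log2 difference of *Cth* was 0.90 with normexp and 1.65 in the deposited table.

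**Figure D4:**
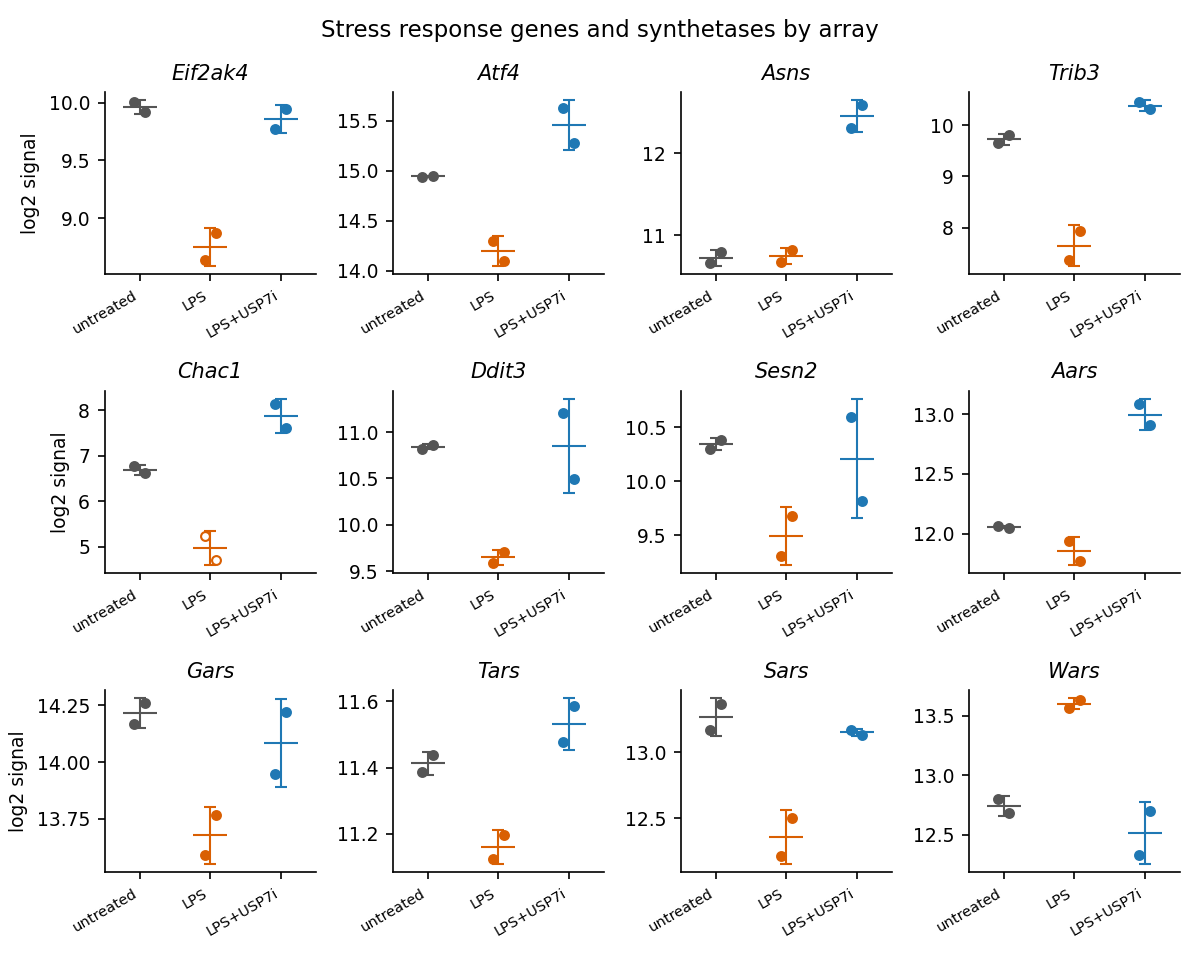
Log2 signal by array of 7 integrated stress response genes and 5 cytosolic synthetases in untreated, LPS, and LPS+USP7i cells (points, arrays; horizontal bars, group means; error bars, SD with n = 2; open points, a group with an array not well above background). *Atf4*, *Aars*, and *Asns* are highest with LPS+USP7i, and *Wars* is highest with LPS (13.57 and 13.63).

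Interferon-responsive genes were read beside *Wars*. Of 7, 6 were higher with LPS (median 3.90), against 7.97% of all gene names and 14.1% of those well above background, led by *Cxcl10* at 8.91, *Gbp2* at 6.36, and *Ifit1* at 5.82 (adjusted p = 0.0028, 0.00425, and 0.00336), and *Ido1*, a tryptophan-degrading enzyme, was at background on all 6 arrays. With the inhibitor *Gbp2* fell by 2.36 (adjusted p = 0.0471), and the median of the list was −0.61. Against untreated cells 5 of 7 were higher with LPS+USP7i (6.15% of all gene names and 10.8% of those well above background), *Cxcl10* by 8.65, *Ifit1* by 5.02, *Gbp2* by 4.00, *Irf1* by 3.38, and *Isg15* by 3.19 (adjusted p = 0.00454, 0.00626, 0.0124, 0.00818, and 0.00986). *Wars* was at −0.23 (from −0.41 to 0.07 over all refits). Its second probe was at 0.37 (adjusted p = 0.228), with both LPS+USP7i arrays above both untreated arrays.

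Other genes of aminoacyl-tRNA metabolism were mostly called lower with LPS or not called. Of 14 on the array, 8 were lower and 0 were higher by limma, with 1 higher at an unadjusted p under 0.05, and the median was −0.71, against 12.8% lower over all gene names and 23.9% over those well above background. *Pstk*, a kinase in the making of selenocysteinyl-tRNA, fell by 1.94 (adjusted p = 0.00518), *Qrsl1*, a subunit of the amidotransferase that makes mitochondrial glutaminyl-tRNA, fell by 1.64 (adjusted p = 0.0054), and the peptidyl-tRNA hydrolase gene *Ptrh2* fell by 1.56 (adjusted p = 0.00698). Over all refits *Ptrh2* ranged from −1.69 to −0.73 with LPS, and from −2.03 to −0.83 for LPS+USP7i against untreated cells. *Xpot*, for the tRNA exporter exportin-T, fell by 0.77 (adjusted p = 0.0214). With the inhibitor *Qrsl1* rose by 0.84 and *Pstk* by 0.83 over LPS (adjusted p = 0.0364 and 0.0476), and 0 were lower by limma, with 2 lower at an unadjusted p under 0.05. Against untreated cells 7 were lower with LPS+USP7i (8.73% of all gene names and 16.3% of those well above background), among them *Ptrh2* (−1.90) and *Gatc* (−1.60), with adjusted p values of 0.00772 and 0.0189, and *Sepsecs*, for the enzyme that completes selenocysteinyl-tRNA, was higher by 1.10 (adjusted p = 0.0404).

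Of 9 mitochondrial translation factors, 2 (22.2%) were lower with LPS, near the 23.9% of all gene names well above background. These were *Mtrf1* at −0.88 and the elongation factor gene *Tufm* at −0.38 (adjusted p = 0.0433 and 0.0271), with a median of −0.40, and *Tufm* turned to 0.013 with 75th percentile scaling. With the inhibitor 0 changed in either direction by limma, also at an unadjusted p under 0.05, against 9.74% higher and 7.44% lower over all gene names well above background. Against untreated cells 2 of 9 were lower with LPS+USP7i, *Mtrf1* (−1.07) and *Gfm2* (−0.34), against 16.3% of gene names well above background (adjusted p = 0.0341 and 0.0391). Of 6 cytosolic elongation factor genes, *Eef1g* fell by 1.64 with LPS and rose by 1.24 with the inhibitor (adjusted p = 0.00299 and 0.0113), which as the mean of its probes were −0.58 and 0.54, both still past the threshold. The brightest of its 3 probes is placed on build mm9 at chr15:15873701-15873760. Whether that probe reads the *Eef1g* locus was not tested. *Eef1d* fell by 0.70 and *Eef2* fell by 0.36 with LPS (adjusted p = 0.0325 and 0.0323). With 75th percentile scaling *Eef1g* was at −1.05 and *Eef2* turned to 0.22. *Eef1g* was still lower than in untreated cells with LPS+USP7i (−0.40, adjusted p = 0.0382), which 75th percentile scaling turned to 0.0054 and the mean of its probes put at −0.043. In all, 3 of the 6 were lower with LPS, against 12.8% of all gene names and 23.9% of those well above background. With the inhibitor 1 was higher (5.51% and 9.74%), and against untreated cells 1 was lower with LPS+USP7i (8.73% and 16.3%). A difference from these shares was not tested.

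The 36 members had 46 probes, and 9 members had several. Second probes of *Farsa*, *Tars2*, and *Pars2* gave the same calls with LPS as the brightest probe, with −0.59 for *Tars2* (adjusted p = 0.0441), and that of *Farsa* also fell by 0.79 with the inhibitor (adjusted p = 0.0401). For *Pars2* the second probe was above background in untreated cells only. The dimmest probe of *Farsa* had 0.35 with LPS (adjusted p = 0.56), and the mean of its probes had −0.28 with the inhibitor, which did not pass (adjusted p = 0.28). The second probes of *Cars2* and *Vars2* gave −0.56 and −1.34 without passing (adjusted p = 0.159 and 0.105), the latter above background in untreated cells only. The second probe of *Aars* was at background on all 6 arrays, and both probes of *Iars2* were not called.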

How the data were processed

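Total RNA of the 6 cultures (200 ng each, labeled with Cy3) was hybridized to 1-colour Agilent mouse arrays. The authors deposited scanner output with background-corrected spot intensity per probe, and a table of normalized log2 values; their methods name limma with quantile normalization. Here the log2 processed signal of 59305 spots that were not controls was quantile-normalized, outlier spots were left out, spots of a probe were averaged, and limma 3.58.1 (R 4.3.3) was fitted to all 6 arrays with 3 residual degrees of freedom. P values were adjusted over 55680 probes. The probe with the highest mean stood for a gene. With 2 arrays per group, exact permutation gives no p under 0.333 (two-sided). Spots well above background numbered 25002 to 27467 per array. The pipeline was tested on simulated data. Motifs were searched in RefSeq promoters (GRCm38.p6). Array values were printed for *Wars*, *Gars*, *Kars*, and the members with the largest or smallest differences, and related genes came from lists, with up to 3 of the largest called differences each; others, named where a count was 5 or fewer, were chosen after their values were seen. Members and lists were chosen with earlier results of these data known. Alternatives were 75th percentile scaling, normexp with an offset of 50, the deposited table, dim probes left out, a prior with a trend, outlier spots retained, fits of 2 groups, a replicate block, probe means, a log2 difference of at least 1, and leaving out each array.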

Additional observations from a re-analysis of the deposited data

How the results depend on the processing

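Counts of called members moved with several settings, while the direction of every called synthetase held in all refits. Of these counts, 127 were equal to the main count or within a set ratio of it, and 65 moved. Over the other results, on single genes, medians, and probe counts, 2902 values were the same. That was judged by call and sign for genes, by the replicate spread for medians, and by the same ratio for probe counts. A further 502 lost their call, 89 gained one, and 149 moved. Among those that moved were the cytosolic median of LPS+USP7i minus untreated and genes with no call whose sign changed. The remaining 3 called values turned sign. These were *Eef2* (0.22) and *Tufm* (0.013) with LPS and *Eef1g* (0.0054) in LPS+USP7i minus untreated, each with 75th percentile scaling. That scaling moved the split of called probes from 3948 higher and 5947 lower (39.9% higher) to 21768 and 5669 (79.3%) for LPS, and from 3147 and 4086 (43.5%) to 21937 and 4605 (82.7%) for LPS+USP7i minus untreated. The cause was not tested.

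For LPS minus untreated, 4 cytosolic members were higher and 3 lower, against 4 and 0 with 75th percentile scaling and 2 and 2 with the deposited table. Mitochondrial members called lower numbered 5 with the deposited table against 8, and with 75th percentile scaling 1 was called higher. With a minimum log2 difference of 1, the counts were 1, 0, and 2 lower mitochondrial. For LPS+USP7i minus LPS, fits of only the 2 groups gave 0 and 0 cytosolic and 0 mitochondrial, which use fewer residual degrees of freedom. The deposited table gave 2 cytosolic members lower, normexp and the fit without dim probes each gave 1 mitochondrial member lower, and a minimum difference of 1 gave 1 and 1 cytosolic. For LPS+USP7i minus untreated, the deposited table gave 2 cytosolic members higher and 0 lower, fits of 2 groups 2 and 0, the fit without dim probes 4 lower, and a minimum difference of 1 gave 1 and 0 cytosolic and 5 mitochondrial, while 75th percentile scaling called 1 mitochondrial member higher. Members not called in the report but called in some alternative, the replicate block left aside, were *Gars*, *Mars*, *Mars2*, and *Nars2* for LPS, *Gars*, *Tars*, and *Rars2* for LPS+USP7i minus LPS, and *Hars*, *Farsb*, *Mars*, *Ears2*, and *Nars2* for LPS+USP7i minus untreated.

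Leaving out each array in turn, where a lone array is assumed to vary like the other groups, gave for LPS 0 to 4 cytosolic members higher, 0 to 2 lower, and 1 to 6 mitochondrial lower. For LPS+USP7i minus LPS it gave 0 to 3 cytosolic higher, 0 to 3 lower, and 0 to 0 mitochondrial higher. For LPS+USP7i minus untreated it gave 0 to 3 cytosolic higher, 0 to 0 lower, and 0 to 7 mitochondrial lower. Fewer residual degrees of freedom remain in each.

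With a replicate block, 5 cytosolic members were lower with LPS and 4 were lower in LPS+USP7i minus untreated. For LPS, *Wars*, *Nars*, *Fars2*, and *Hars2* lost their call, and *Farsb*, *Gars*, *Mars*, and *Mars2* gained one. For LPS+USP7i minus untreated, *Nars* and *Fars2* lost theirs, and *Farsb* and *Mars* gained one. In LPS+USP7i minus LPS, 3 cytosolic members were higher (*Aars*, *Cars*, *Nars*) and 1 was lower (*Kars*), while *Sars*, *Wars*, *Vars*, and *Farsa* were not called. The labels do not say that a number marks a shared experiment, and deviations of same-numbered arrays from their group means correlated at 0.47, 0.40, and 0.42 over 20705 probes well above background.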
